A study of Drosophila melanogaster with 2 samples.

Results

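Chromosome 4 of Drosophila melanogaster held 749 of the 30000 candidate peaks that the authors deposited for the pooled chromatin immunoprecipitation sequencing (ChIP-seq) data of CG4854-eGFP, and 14 of these 749 were among the 3106 peaks of their final set. The authors named the candidate list as peaks and background, so a candidate is not by itself a called peak. Of the 749, 335 ranked between 20001 and 30000 by signal. The members were all entries of the pooled candidate list on chromosome 4, so no measured value chose them within that list. The list itself held exactly 30000 entries, and how regions entered it is not given in the sources used here. Signal may therefore have set which regions were listed. The densities and signals below describe listed regions alone. The final set of 3106 peaks is called the IDR set here, after the irreproducible discovery rate in the authors' name for it. This statistic asks whether peaks rank alike in separate replicates. The set was also exactly the 3106 pooled entries of highest signal. The share of candidates in the set and their rank by signal are therefore not separate results. Membership in the set also does not show that a single peak ranked alike in both replicates. Both samples, biological replicates 3 and 2, were whole embryos of mixed sex aged 0 to 24 hours from 1 transgenic line with eGFP at the C terminus of CG4854, recovered with an antibody to GFP. Each library came from many pooled embryos of all embryonic stages, and 1 shared control file stood behind the lists of both replicates. There was 1 group, so no test over samples was possible. Intervals are exact 95% intervals that cover counting error over regions or genes alone. Chromosome 4 was set beside the arms 2L, 2R, 3L, 3R and X.

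Chromosome 4, the dot chromosome or Muller element F, is the smallest autosome of the fly. Most of it is packed as heterochromatin that carries HP1, and the chromosome-specific protein POF coats its genes, yet many of these genes are transcribed. It is rich in remnants of transposons such as INE-1 and 1360. CG4854 encodes a zinc finger protein of the ZAD family, insect proteins that bind DNA.

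Of the sequences shown here, the first and second are the chromosome 4 peaks of highest signal, which lay away from protein-coding start sites. The other two are peaks of lower signal outside promoters, shown because they held a motif described below. Each sequence is the 101 bases around a summit, the position of highest signal within a peak, read from the RefSeq Release 6 genome (dm6) on the plus strand. Capitals mark the fixed motifs TATCGATA, the DNA replication-related element (DRE), and CGATA, the core of the site of the insulator protein BEAF-32, on either strand. The DRE contains CGATA, so these motifs overlap.
lgs-dati interval, chr4:424761-424861: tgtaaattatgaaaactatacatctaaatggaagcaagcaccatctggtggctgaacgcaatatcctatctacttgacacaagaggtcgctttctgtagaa
upstream of zfh2, chr4:497830-497930: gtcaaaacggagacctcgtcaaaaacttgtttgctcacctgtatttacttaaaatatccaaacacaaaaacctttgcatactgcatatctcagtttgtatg
Asator intron, chr4:486661-486761: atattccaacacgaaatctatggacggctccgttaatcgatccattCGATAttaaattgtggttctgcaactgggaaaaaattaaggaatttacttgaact
upstream of ey, chr4:696862-696962: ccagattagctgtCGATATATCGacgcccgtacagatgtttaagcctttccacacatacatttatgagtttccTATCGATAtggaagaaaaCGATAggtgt
The first and second windows, at the highest chromosome 4 signals, held none of the 8 motifs searched. The Asator window held CGATA 1 time. The ey window, at the lowest signal of the 14, held the DRE 1 time and CGATA 5 times, counting both strands and the matches inside the DRE.

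Candidates lay more densely on chromosome 4 than on any other arm, whereas peaks of the IDR set lay more sparsely. Per Mb of length, chromosome 4 held 555.6 candidates and the other arms 220.7, with single arms between 199.4 and 243.0, a ratio of 2.52. Per protein-coding gene the ratio was larger, with 9.36 candidates per gene on chromosome 4 and 2.11 on the other arms (single arms 1.77 to 2.49), a ratio of 4.44. Genes were sparser on chromosome 4, at 59.3 protein-coding genes per Mb against 104.6 on the other arms. Chromosome 4 thus made up 1.01% of the length, with 80 of the 13945 protein-coding genes, and held 2.50% of the candidates. Candidate peaks covered 21.1% of chromosome 4, against 7.34% to 8.99% of each other arm.

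The deficit of IDR peaks depended on what they were counted against. Of the chromosome 4 candidates 1.87% (1.03 to 3.12) were in the IDR set, against 10.4% of the whole list. Chromosome 4 held 10.4 IDR peaks per Mb (5.68 to 17.4), and the other arms held 23.3 (single arms 21.8 to 25.3), a ratio of 0.445 (0.243 to 0.747). Counted against genes, it held 17.5 IDR peaks per 100 genes (9.57 to 29.4), and the other arms held 22.3 (single arms 20.3 to 24.3). That ratio was 0.785 (0.429 to 1.32), an interval that includes 1, so a difference per gene was not detectable with 14 peaks.

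**Figure D1:**
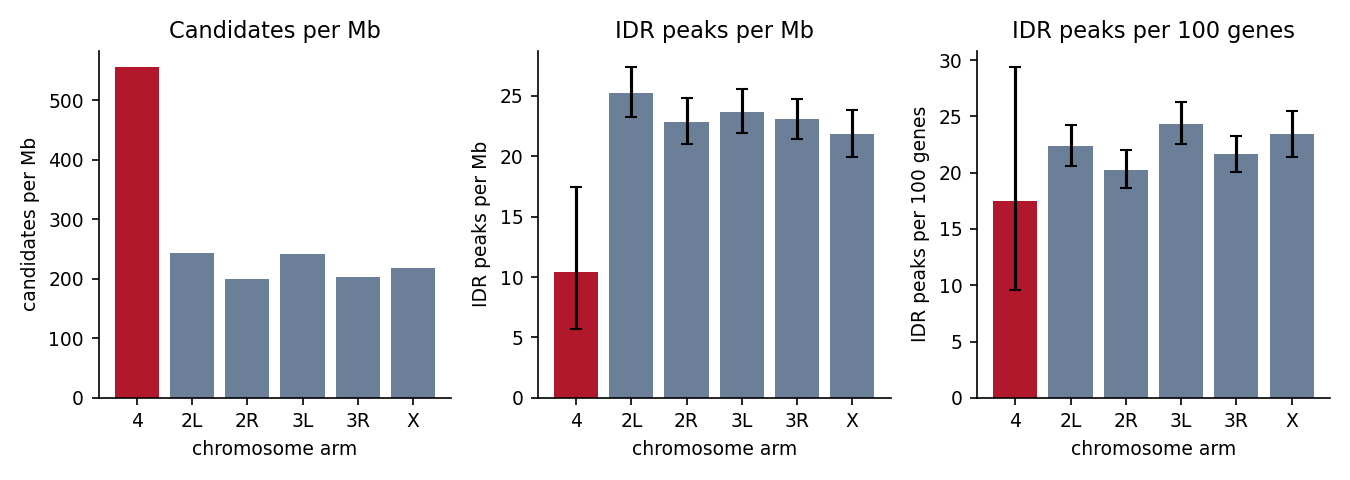
Candidates per Mb (left), IDR peaks per Mb (middle) and IDR peaks per 100 protein-coding genes (right) on chromosome 4 and on each other arm; bars are the counts of the pooled list and lines the exact 95% Poisson intervals. Chromosome 4 stands at 555.6 candidates per Mb and at 10.4 IDR peaks per Mb, and its interval per 100 genes (9.57 to 29.4) takes in the values of all other arms.

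The chromosome 4 candidates lay low in the ranking. The signal of a peak is the authors' own score in the scale of their peak caller, so its level was compared between arms within a list alone. Where replicate lists are set side by side, the score was not rescaled between them, and depth is unknown. The median signal was 28.6 on chromosome 4 and 33.2 on the other arms (single arms 32.4 to 34.0). The upper tail differed more, with 95% of chromosome 4 candidates at or below 58.0, while the same point lay between 142.3 and 156.8 on each other arm. The highest signal was 462.1 on chromosome 4, against 1216.6 to 1775.6 as the highest of each other arm. As a percentile of the whole list, where 100 is the strongest, the median chromosome 4 candidate stood at 38.0 and the median candidate elsewhere at 50.4.

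The share of entries on chromosome 4 was below its share of length at the top of the list and above it further down. It held 4 of the 1000 strongest entries (0.400%, 0.109 to 1.02) and 10 of the next 2106 (0.475%, 0.228 to 0.871), against 1.01% of the length. Between ranks 5001 and 10000 it held 89 (1.78%, 1.43 to 2.19). From rank 10001 onward it held between 2.96% and 3.36% of each block of 5000 entries. The replicate lists had the same shape, although the share at ranks above 5000 was smaller in replicate 3 than in replicate 2. Replicate 3 listed 566 candidates on chromosome 4 and replicate 2 listed 726. Among the 3106 strongest entries, chromosome 4 had 12 in replicate 3 and 14 in replicate 2. In replicate 3 that was 2.12% of the chromosome 4 entries, against 10.5% of those elsewhere, and in replicate 2 it was 1.93% against 10.6%.

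**Figure D2:**
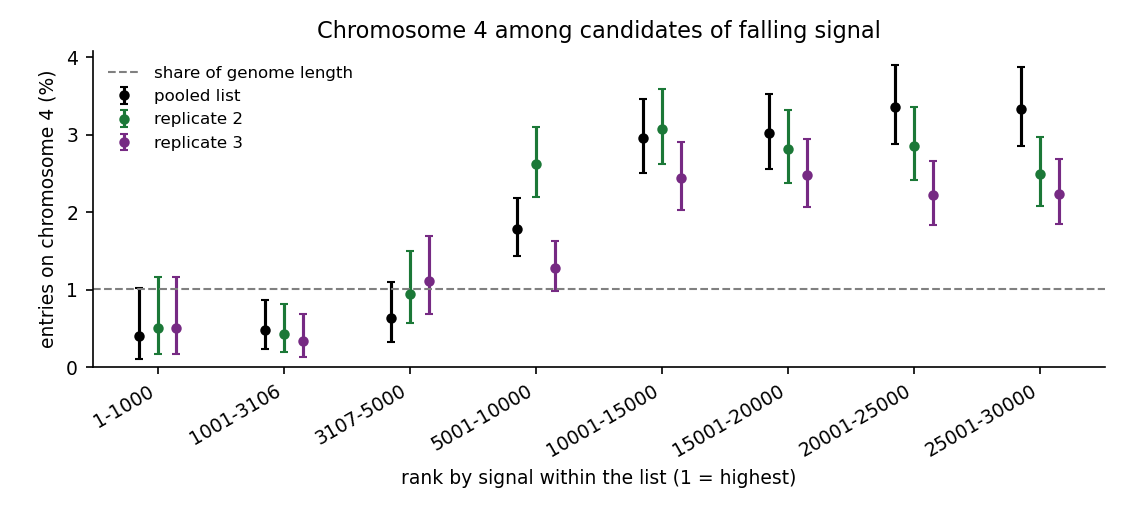
Percent of list entries on chromosome 4 (vertical) by rank of signal within the list (horizontal), for the pooled list and for each replicate, with exact 95% binomial intervals; the dashed line is the share of chromosome 4 in the genome length, 1.01%. In the pooled list the share is 0.400% at ranks 1 to 1000 and 3.34% at ranks 25001 to 30000.

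The features that held the candidates also differed. Each summit was placed in the first class that applied, in the order promoter (within 500 bp of a protein-coding start site), 5' UTR, coding exon, 3' UTR, intron and intergenic. All classes used protein-coding genes alone, so intergenic DNA here may include genes of other kinds. On chromosome 4, coding exons held 143 of 749 summits (19.1%, 16.3 to 22.1), the share that coding exons took of the length there (18.9%). On the other arms they held 4.69% of summits and 13.9% of the length. Per Mb of coding exon this was 562 candidates on chromosome 4 and 74.6 elsewhere, a ratio of 7.53, the largest of the 6 classes. Both replicate lists showed it, with 19.3% in replicate 3 and 20.7% in replicate 2 on chromosome 4, against 6.45% and 4.36% on the other arms. No coding exon summit on chromosome 4 was in the IDR set, a count that allows up to 2.10% by the rule of 3 counts, and 0.438% of those elsewhere were.

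Promoters held a smaller share on chromosome 4, with 108 of 749 summits (14.4%, 12.0 to 17.1) against 28.9% elsewhere. They took 8.55% of the length of chromosome 4 and 11.5% of that of the other arms, so summits lay in promoters 1.69 times as often as length alone gives on chromosome 4 and 2.52 times as often elsewhere. Candidates per Mb of promoter were 937 on chromosome 4 and 556 on the other arms, a ratio of 1.68, the smallest of the 6 classes. Within promoters, 64 of the 108 summits (59.3%, 49.4 to 68.6) lay upstream of the start site on chromosome 4, and 62.2% did elsewhere. The median position was 38 bp upstream on chromosome 4 and 41 bp upstream on the other arms, a small difference beside the spread of single summits, whose quartiles were -167 and 128.75 bp on chromosome 4.

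Introns held 305 chromosome 4 summits (40.7%, against 42.2% of the length), and 41.8% of summits elsewhere. Intergenic DNA held 122 (16.3%, against 22.1% of the length) on chromosome 4 and 18.3% on the other arms. The 3' UTRs held 58 (7.74%, against 7.28% of the length) on chromosome 4 and 5.21% elsewhere, and the 5' UTRs outside promoters held 13 (1.74%) on chromosome 4 and 1.08% elsewhere. Relative to their share of the length, coding exons, 3' UTRs and introns on chromosome 4 thus held 1.01, 1.06 and 0.965 times their part of the summits. On the other arms these figures were 0.338, 1.16 and 1.06.

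**Figure D3:**
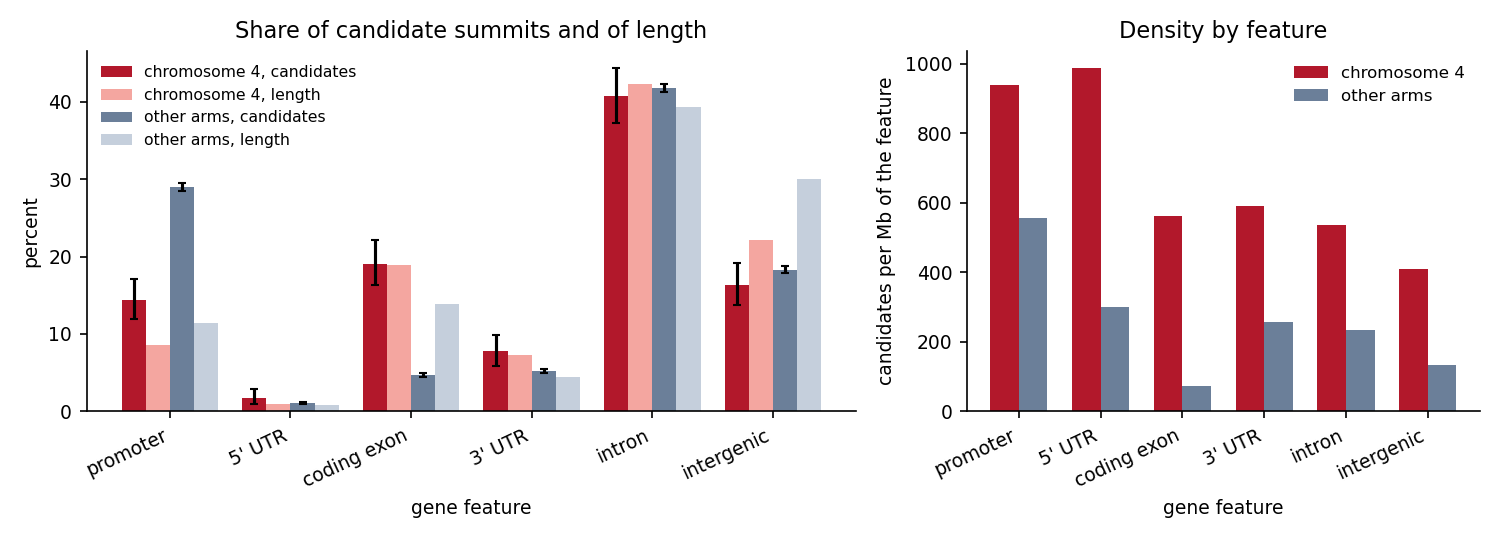
Left, percent of candidate summits and percent of chromosome length in each gene feature, for chromosome 4 and for the other arms, with exact 95% binomial intervals on the summits. Right, candidates per Mb of each feature; coding exons stand at 562 per Mb on chromosome 4 and 74.6 per Mb on the other arms.

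Signal was lower in some features than in others, and chromosome 4 did not stand below the other arms in all of them. The median promoter candidate stood at percentile 52.4 on chromosome 4 and 69.6 elsewhere, and the median intron candidate at 33.3 on chromosome 4 and 46.7 elsewhere. In coding exons the order turned, with a median percentile of 35.1 on chromosome 4 and 29.8 on the other arms. Of the promoter candidates, 6 of 108 (5.56%, 2.07 to 11.7) were in the IDR set on chromosome 4, against 19.9% elsewhere. Of the intron candidates, 1 of 305 (0.328%, 0.0083 to 1.81) was, against 7.89% elsewhere. For intergenic candidates the interval of chromosome 4 took in the value of the other arms, with 6 of 122 (4.92%, 1.83 to 10.4) against 7.47%.

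Nearly every chromosome 4 gene carried candidates in its body. Of 80 protein-coding genes, 78 (97.5%, 91.3 to 99.7) had at least 1 summit between start and end, against 39.0% of all genes and 35.8% to 42.7% of those on single other arms. A summit in a coding exon outside promoter windows was found at 63 of 80 (78.8%, 68.2 to 87.1), against 8.88% of all genes. Genes on chromosome 4 were also longer, with a median of 10090 bp against 2156 bp elsewhere, and the part of gene length in these shares was not tested. The following genes were chosen after their values were seen. The highest counts lay in pan, which encodes the TCF factor of Wnt signalling (33), zfh2, a zinc finger homeodomain factor (23), PMCA, a plasma membrane calcium pump (22), and unc-13, which primes synaptic vesicles (21). Coding exon summits ranged widely per coding base among the genes named here. The gene with the most coding sequence, bt, which encodes the giant muscle protein projectin, had 3 such summits on 26908 coding bases (111 per Mb). CG33978 had 8 on 12554 bases (637 per Mb), and eIF4G1, a translation initiation factor, had 5 on 5757 (869 per Mb). At pan there were 5 on 4871 bases (1026 per Mb), and at PlexB 0 on 6153. Each of these rates rests on few summits.

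Most chromosome 4 genes had a candidate at a promoter, and 7 had an IDR summit there. A candidate summit lay within 500 bp of a start site at 69 of 80 genes (86.3%, 76.7 to 92.9), against 50.3% of all genes tested. An IDR summit lay there at 7 of 80 (8.75%, 3.59 to 17.2), against 15.8% of all genes. On single other arms that share ran between 11.7% on X and 17.5% on 3L, and the chromosome 4 interval takes in the 15.8% of all genes. A difference in this share was thus not detectable with 80 genes. Among genes with a candidate at the promoter, 10.1% (4.18 to 19.8) had an IDR summit on chromosome 4 and 31.6% did elsewhere. The lowest other arm in this measure was X with 21.5%. The best promoter candidate of a gene had a median signal of 46.1 on chromosome 4 and 64.7 elsewhere.

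The 11 genes with no promoter candidate were Kif3C, fd102C, dpr7, fuss, PMCA, CG11155, NfI, Ank, Ekar, ND-49 and Ephrin. Each of the 11 had candidates in its body, between 1 at fd102C and 22 at PMCA, and an IDR peak lay 4432 bp upstream of fuss.

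Gene groups on chromosome 4 are described by the strongest promoter candidate of each member, pooled list. For comparison, 69 of all 80 chromosome 4 genes had a promoter candidate and 7 an IDR summit there, so the counts of groups this small are descriptions. Of 17 transcription regulators, 14 had a candidate and 1 an IDR summit, with a median best signal of 56.6, against 46.1 over the 69 genes of the chromosome with one. Sox102F, a SoxD-type HMG-box factor, led with 151.5, followed by pan (89.7), the Pax6 gene ey (69.9), Pur-alpha (69.6), the host cell factor homolog Hcf (63.6) and the Gli-type Hedgehog effector ci (60.1). All 3 activin and BMP-type ligands had a candidate and none an IDR summit. Their signals were 87.1 at myo, which encodes myoglianin, 60.7 at Actbeta and 32.7 at mav.

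Of 14 neuronal signalling, adhesion and synapse genes, 11 had a candidate and 2 an IDR summit, with a median of 50.2. The IDR summits were at PlexA, a semaphorin receptor (127.5), and CaMKII, a calcium-dependent kinase (108.4). The ephrin receptor gene Eph (54.2), Cadps (54.2), PlexB (54.1) and mGluR (50.2) lay below the IDR set. Of 18 housekeeping genes, 15 had a candidate and 3 an IDR summit, with a median of 49.6. These 3 were gw (232.8), RpS3A (144.4) and ATPsynbeta (117.8), and the next were Tdg, a DNA glycosylase (69.6), Gyf (69.1) and Asator (66.2). Tdg and Pur-alpha shared 1 peak. The 3 genes for muscle and secreted proteins all had a candidate and none an IDR summit, with the lowest median of the 5 groups (33.5): 36.4 at bt, 33.5 at yellow-h and 33.5 at apolpp, the precursor of lipophorin.

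The 14 IDR peaks lay in intergenic DNA more often than those of other arms did. On chromosome 4, 6 lay at promoters and 6 in intergenic DNA, each 42.9% (17.7 to 71.1), 1 in an intron (7.14%, 0.181 to 33.9) and 1 in a 3' UTR. Over the other arms together 54.4% lay at promoters, 12.9% in intergenic DNA and 31.2% in introns. Of these 3 shares the intergenic one alone lay outside the chromosome 4 interval. On single other arms the intergenic share ran from 9.34% on X to 17.7% on 3L, and that of 3L was just inside the interval. Their median signal was 128.4, against 146.1 on the other arms.

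The strongest peak, chr4:424672-424970, lay between dati, which encodes a zinc finger factor, and lgs, the BCL9 homolog of Wnt signalling. Its summit was 29206 bp from dati and 12146 bp from the 3' end of lgs. Its signal was 462.1 in the pooled list (rank 145), 229.9 in replicate 3 and 233.0 in replicate 2, nearly equal in both. The next, chr4:497745-498054, lay 3930 bp upstream of zfh2 with 406.7 pooled (rank 192), 247.5 in replicate 3 and 165.1 in replicate 2. These were the peaks whose sequences without a motif match are printed above.

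The next pair of peaks in order also ranked among the 1000 strongest of the list. The peak at chr4:1113237-1113491 had its summit in the 3' UTR of Cals, a calsyntenin gene, and 45 bp past the end of sv, the Pax2 gene. Its signal was 249.9 pooled, 137.3 in replicate 3 and 110.5 in replicate 2. The peak at chr4:659950-660253 lay 100 bp upstream of a start site of gw, which encodes the GW182 protein of microRNA silencing, with 232.8 pooled, 100.5 in replicate 3 and 137.2 in replicate 2. No other chromosome 4 peak had a pooled signal above 151.5.

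The other promoter peaks were Sox102F, RpS3A, PlexA, ATPsynbeta and CaMKII. The peak of Sox102F (chr4:807455-807858) lay inside the gene, 310 bp upstream of an internal start site, with 151.5 pooled, 44.9 in replicate 3 and 106.3 in replicate 2. The peak of RpS3A, a ribosomal protein gene (chr4:67175-67319), had its summit on the start site, with 144.4 pooled, 85.2 in replicate 3 and 67.0 in replicate 2. The PlexA peak (chr4:1027173-1027352) lay 178 bp upstream, with 127.5 pooled, 37.9 in replicate 3 and 85.0 in replicate 2. By rank within each list, Sox102F stood at 4007 in replicate 3 and 877 in replicate 2, and PlexA at 5389 and 1319. Both thus ranked higher in replicate 2, whereas RpS3A was closer, at 1209 in replicate 3 and 1980 in replicate 2.

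ATPsynbeta encodes the beta subunit of the mitochondrial ATP synthase. Its peak (chr4:1031684-1032087) lay inside the gene, 22 bp downstream of an annotated start site and 129 bp from CG11076, which shares it as a promoter peak. The signal was 117.8 pooled and 55.8 in replicate 3. Replicate 2 had no summit within 100 bp, and its nearest one lay at 1031994 with 66.6, so the lists placed the summit differently. The CaMKII peak (chr4:1053716-1054119) lay 215 bp upstream, with 108.4 pooled, 37.6 in replicate 3 and 68.7 in replicate 2.

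The remaining peaks lay outside promoters. The Asator peak (chr4:486654-486808), in an intron of this tau-tubulin kinase gene and 678 bp upstream of another of its start sites, had 129.3 pooled, 101.2 in replicate 3 and 30.3 in replicate 2. Replicate 2 also had a stronger summit at 486541 with 57.3, beyond the 100 bp that counted as shared. The peak chr4:406920-407089, 11403 bp upstream of dati, had 117.0 pooled, 64.4 in replicate 3 and 48.3 in replicate 2. The peak chr4:982719-983122, 4432 bp upstream of the SKI family gene fuss, had 104.2 pooled, 42.6 in replicate 3 and 67.0 in replicate 2. Neither replicate was higher throughout these 3 peaks.

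The peaks nearest to the threshold of the IDR set were those of ci and ey. The peak chr4:58950-59353, 2111 bp upstream of ci, had 101.2 pooled, 61.6 in replicate 3 and 28.6 in replicate 2. The peak chr4:696710-697113, between myo and ey and 777 bp upstream of ey, had 97.6 pooled, 18.0 in replicate 3 and 60.6 in replicate 2. It ranked 18109 in replicate 3 and 2307 in replicate 2, so replicate 2 alone had it among the 3106 strongest. Just outside the set lay candidates near myo (91.8 and 87.1), dati (91.7), Asator (91.7) and pan (89.7), where the lowest signal of the whole IDR set was 95.2.

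Of the 14 peaks, 5 (35.7%, 12.8 to 64.9) were among the 3106 strongest entries of both replicate lists, against 63.7% of the 3092 IDR peaks elsewhere, a value inside that interval. These 5 lay at lgs, zfh2, Cals, gw and RpS3A. Replicate 3 held 9 of the 14 among its strongest and replicate 2 held 10, with the 5 counted in both. The strongest entries of single replicates also included chromosome 4 summits that had no IDR peak within 100 bp, 3 in replicate 3 and 4 in replicate 2. Those of replicate 3 lay upstream of Asator (75.7), at ci (55.7) and at Actbeta (54.4). Those of replicate 2 included pho, a Polycomb group gene (55.4), and the shifted ATPsynbeta summit.

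**Figure D4:**
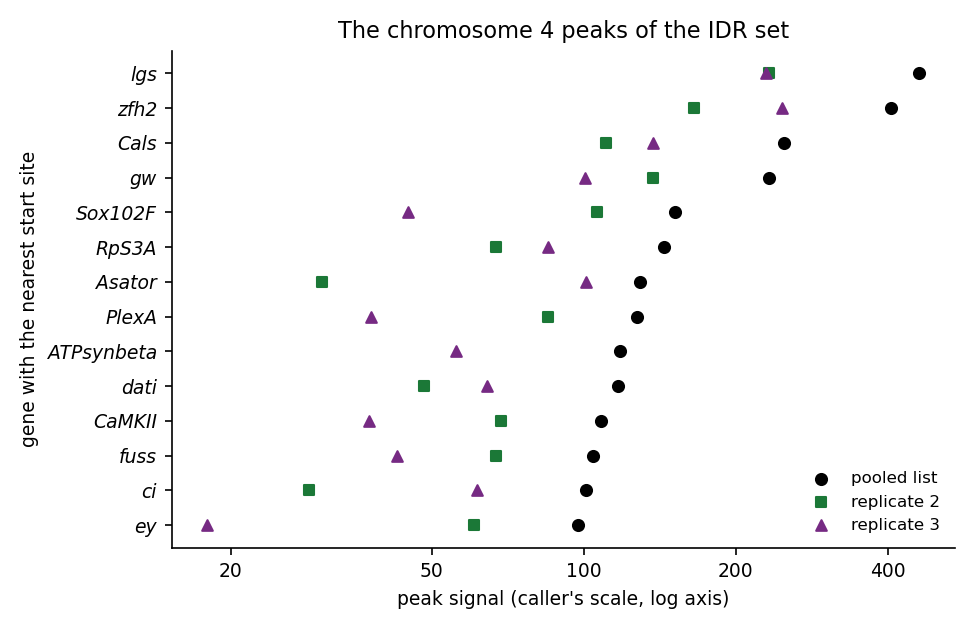
Signal of the 14 chromosome 4 IDR peaks (horizontal, log axis, scale of the peak caller) in the pooled list, replicate 2 and replicate 3, by the gene with the nearest start site; replicate 2 has no point for ATPsynbeta because no summit lay within 100 bp. The peaks near lgs and zfh2 stand apart at 462.1 and 406.7.

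Agreement between replicates over all candidates followed rank. A summit within 100 bp was listed in both replicates for 181 of 749 chromosome 4 candidates (24.2%, 21.1 to 27.4), against 35.8% of the whole list. Within ranks 3107 to 10000 the shares were 71.3% (61.4 to 79.9) on chromosome 4 and 70.2% on the other arms. Within ranks 10001 to 20000 they were 28.4% (23.4 to 33.9) and 26.5%, and within ranks 20001 to 30000 they were 3.28% (1.65 to 5.80) and 3.00%. At equal rank, the chromosome 4 intervals thus included the values of the other arms. Of the rest, 185 chromosome 4 candidates had a summit in replicate 3 alone, 262 in replicate 2 alone and 121 in neither. Where both had one, the log2 ratio of replicate 3 to replicate 2 had a median of -0.03 and an SD of 0.63 on chromosome 4, against -0.02 and 0.67 elsewhere. Across these regions the replicate signals had a Spearman rho of 0.337 on chromosome 4 (n = 181) and 0.685 elsewhere (n = 10554). These are descriptions, since all regions share the same 2 libraries and control. Chromosome 4 candidates also spanned a narrower range of signal, with 95% at or below 58.0 against 150.4 on the other arms. The part of this range in the lower rho was not tested.

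Transposable elements were a larger part of chromosome 4, and they held fewer candidates than their share of its length. Annotated elements took 24.8% of chromosome 4 and 5.74% of the other arms. They held 119 of the 749 summits (15.9%, 13.3 to 18.7) on chromosome 4 and 0.687% elsewhere. Outside the elements, candidates lay at 621 per Mb on chromosome 4 and 232.5 per Mb on the other arms, a ratio of 2.67, so the density was as large without them. Of the 630 candidates outside elements, 14 (2.22%, 1.22 to 3.70) were in the IDR set on chromosome 4, against 10.6% elsewhere. None of the 119 inside elements was, which allows up to 2.52% by the rule of 3 counts, and the highest signal among them was 73.3, in a 1360 element. How the authors treated reads that map to several places is not given in the sources used here, and its part in the densities inside and outside elements was not tested.

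INE-1 is a short transposon remnant and the commonest on the chromosome. Its remnants on chromosome 4 numbered 344 of 566 annotated insertions and held 83 summits (11.1%), or 79 where a summit in overlapping elements was counted for the first one listed. Candidates lay at 853 per Mb inside INE-1 and 532 per Mb outside it on chromosome 4, against 295 inside and 220 outside it elsewhere. INE-1 was therefore denser in candidates than the sequence around it, unlike transposable elements as a whole (356 per Mb inside and 621 outside). The median signal of these 83 was 27.7, close to the 28.6 of all chromosome 4 candidates, and none was in the IDR set. The next family, 1360, held 15 candidates at 60 insertions by the count that gave INE-1 79.

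Candidates ran along most of the chromosome. Each of the first 13 windows of 100 kb held between 28 and 70 summits, and the last, shorter window held none. The first summit lay at 509 and the last at 1261637, with 86494 bases after it. Between neighbouring summits the largest gap was 38511 bp, from 3340 to 41851, inside the first window. Of 95 stretches of the same length on the other arms, none held as many as 749; the most was 647 and the median 324. Only 13 of the 95 held 14 or fewer IDR peaks, and these had few candidates, a median of 7 and at most 159. Of the 53 stretches with at least 300 candidates each, the fewest IDR peaks in 1 stretch was 18. The stretch of the same length at the centromere end of each other arm, 5 in all, held 109 candidates, 1 IDR peak and 82 genes together, so chromosome 4 with 749 candidates, 14 IDR peaks and 80 genes differed from them in both counts.

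Base composition differed too. The 101 bases around chromosome 4 summits had a mean GC content of 35.9% ± 6.6 (SD, 749 windows), and those elsewhere 39.0% ± 9.7 (29251 windows), where the arms themselves had 35.2% on chromosome 4 and 42.2% elsewhere. At coding exon summits the GC content was 40.2% on chromosome 4 and 53.9% elsewhere. At the IDR summits it was nearly equal, 35.6% ± 5.7 (14 windows) on chromosome 4 and 35.9% ± 9.0 (3092 windows) on the other arms. The part of base composition in the candidate density was not tested.

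Of the 8 motifs, CGATA alone was more frequent at chromosome 4 candidates than in chromosome 4 sequence at large by more than counting error. The intervals were not adjusted for the 8 comparisons, and the lower end for CGATA (14.0) lay close to the base rate of 13.3%. On the other arms CGATA was likewise more frequent at candidates than at large. The DRE was found in 0.935% (0.377 to 1.92) of candidate windows on chromosome 4, against 0.896% of all its windows of 101 bases. On the other arms it was in 1.31% of candidate windows and 0.269% of all windows. The chromosome 4 sequence as a whole was thus the richer in DREs, while its candidates were not richer than the rest of it within the interval. CGATA occurred in 16.6% (14.0 to 19.4) of chromosome 4 candidate windows and 13.3% of all its windows, against 14.3% and 11.3% elsewhere. The TATA box sequence TATAAA occurred in 23.9% (20.9 to 27.1) of chromosome 4 candidate windows and 21.8% of all its windows, against 16.5% and 11.6% elsewhere.

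The other motifs stood within counting error of the base rate of the chromosome. The repeat CACACACA occurred in 0.668% (0.217 to 1.55) of chromosome 4 candidates and 0.592% of its windows, against 2.03% and 2.11% elsewhere. GAGAG, the core of the GAGA factor site, occurred in 9.61% (7.60 to 12.0) of chromosome 4 candidates and 9.25% of its windows, against 11.7% and 11.5% elsewhere. The E-box CAGCTG occurred in 2.00% (1.13 to 3.28) of chromosome 4 candidates and 2.22% of its windows, against 4.56% and 4.27% elsewhere. The Zelda site CAGGTAG occurred in 8 chromosome 4 candidates (1.07%, 0.462 to 2.09) and in 0.584% of its windows, against 0.462% and 0.534% elsewhere. GTCACACT, the core of promoter Motif 1, occurred in 2 chromosome 4 candidates (0.267%, 0.0324 to 0.961) and 0.129% of its windows, against 0.851% and 0.215% elsewhere. All were searched on both strands, and a match is not a binding site. Of the 14 IDR windows, 5 held any of the 8 motifs. Of all chromosome 4 windows, 13.3% held CGATA, 9.25% GAGAG and 21.8% TATAAA. The share with any of the 8 is not given for other windows, so the count of 5 is a description.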

How the data were processed

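Peak lists from 2 ChIP-seq samples were used. The authors deposited narrowPeak lists of candidates for each replicate and for the pooled data, with an IDR set, on dm6 and dm3. The signal is the deposited peak score in the caller's scale. Aligner, caller, IDR threshold and read depth are each not given in the sources used here, so the depth behind each peak is unknown. Each dm6 list held 30000 entries, and the IDR set was the 3106 entries of highest pooled signal. All ends of the dm6 peaks lay within the arm lengths of the Release 6 reference.

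Coordinates are counted from 1. Genes and transposable elements came from Ensembl release 115 (BDGP6 version 54), and sequence from RefSeq Release 6. Summits within 100 bp counted as shared between lists. Densities used full arm lengths. In a replicate list, the 3106 strongest entries stood in for the IDR set. Shares have Clopper-Pearson and counts Poisson exact 95% intervals, for counting error alone; regions and genes are not replicates, and no test was run. The named genes are those nearest the IDR peaks, the 10 strongest candidates, the 5 candidates on each side of the threshold and up to 6 members per gene list; others are said to be chosen later. The members and lists were chosen with earlier results of these data known. Tools were Python 3.11.15, pandas 2.3.3, NumPy 2.4.6, SciPy 1.17.1 and matplotlib 3.10.9. The procedures were tested on made-up intervals with known answers. Alternatives covered single replicates, the strongest 1553 IDR peaks, dm3, other gene sets, promoter windows, comparison arms and summit distances.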

Additional observations from a re-analysis of the deposited data

How the results depend on the processing

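With 1 replicate's list in place of the pooled one, the chromosome 4 to other arms ratio was 1.89 to 2.44 for candidates per Mb, 3.33 to 4.30 per gene, 0.381 to 0.445 for IDR peaks per Mb and 0.672 to 0.785 per gene. The share of candidates among the strongest was 1.93% to 2.12%, the median percentile 42.3 to 44.4, the promoter share 14.5% to 16.4% and the share of genes with a strong promoter summit 7.5% to 10%. With the stronger 1553 IDR peaks out of 30000 entries, 0.668% of chromosome 4 candidates were in the set. The ratio was then 0.318 per Mb and 0.560 per gene. Of the chromosome 4 genes, 2.50% had a promoter summit in that smaller set, for which the share over all genes is not given. With the dm3 lists over dm6 lengths the share was 2.51% and the ratio 0.505 per Mb. The dm3 IDR set was larger, at 3716 peaks, and held 12.7% of the candidates on the other arms. With all annotated genes except transposable elements the IDR ratio per gene was 0.692. Promoter windows of 250 and 1000 bp gave promoter shares of 9.35% and 24.0%, and the wider gave 12.5% of genes with an IDR summit. Against the centromere ends of the other arms, the ratio was 34.4 for candidates per Mb, and for IDR peaks it turned to 70.0 (10.7 to 2960, from 1 IDR peak there). Summits within 50 and 200 bp gave 13.2% and 35.9% of candidates in both replicates. The cause of these shifts was not tested. Of the 35 alternative values, 19 moved by more than the replicate spread, 2 (the summit distances, which have no such spread) moved, 1 turned direction and 13 did neither. The replicate spread was the SD of the 2 single-replicate values of a result. Those values are themselves among the 35, so the tally is a description. No paired analysis was possible because there was 1 group. The 14 IDR peaks limit every share among them, and read depth is unknown.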
